A study of Mus musculus with 4 samples.

Results

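The genes carried by the mitochondrial genome were examined in sciatic nerve RNA sequencing of mice that model hereditary transthyretin (TTR) amyloidosis. The members were the genes whose symbol begins with mt- in the deposited comparison table, and there were 37 of them among 50593 genes. They comprise 13 protein-coding genes, 2 ribosomal RNA (rRNA) genes and 22 transfer RNA (tRNA) genes, which is every mitochondrial gene of the GENCODE M21 annotation. Of the 37, 20 had an FPKM above 0 in at least 1 group, where FPKM is a level scaled by transcript length and by library size, and 17 were listed at 0 in both groups.

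HSF V30M mice carry a transgene for human TTR with the V30M substitution, which causes familial amyloidotic polyneuropathy, and lack the endogenous mouse Ttr gene. HSF WT mice carry no transgene. Mice of both groups had 1 of their copies of Hsf1, the gene of the heat shock transcription factor, deleted, so the control group shares that deletion. All were 6 months old and of the strain given as 129S1/SvImJ, and the labels list 2 mice per group. The methods state n = 4 without saying whether this is per group. The promoter of the transgene is not given in the sources used here. The table holds 1 FPKM value per gene and group, so no value below has an SD and no difference was tested. A gene was counted as higher or lower where log2((HSF V30M + 1)/(HSF WT + 1)) passed a 1.5-fold difference, which is 0.585 on the log2 scale, and its mean FPKM was at least 1.

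Hsf1 was measured at 7.94 FPKM in HSF V30M and 14.95 in HSF WT. It was thus lower in HSF V30M past 1.5-fold, although the genotypes give both groups the same deletion. The reason was not tested. Mouse Ttr, which the genotype removes from HSF V30M mice, was at 6.10 FPKM in HSF V30M while HSF WT had 0, which goes against the label. Whether reads of the human transgene were counted at the mouse gene was not tested. The labels were used as given, so every direction below is that of the groups labelled HSF V30M and HSF WT. The tissue label was checked with markers of Schwann cells, the myelinating glia of peripheral nerve. All 10 markers were detected in both groups, among them the myelin protein gene Mbp, at 3854 FPKM in HSF V30M and 3441 in HSF WT.

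Mitochondrial DNA is transcribed from both strands as long precursor RNAs. The tRNAs lie between most of the other genes and are cut out, which releases the mRNAs and rRNAs. Every mitochondrial mRNA encodes a subunit of the respiratory chain or of ATP synthase. All other subunits, and the proteins that copy, transcribe and translate mitochondrial DNA, are encoded in the nucleus. Axons and myelinating Schwann cells depend on mitochondria for energy.

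Mitochondrial mRNAs were lower in HSF V30M than in HSF WT, with 1 exception among those with a value. Of the 7 mRNA genes above 0, 6 were lower past 1.5-fold, 0 were higher, and mt-Co1 was at the same level in both groups. Of all 15620 genes at this minimum, 16.7% passed the fold in either direction, with 8.44% lower and 8.22% higher in HSF V30M. Of 12715 protein-coding genes at the same minimum, 10.3% passed it, with 5.32% lower and 5.03% higher. The median log2 ratio of the 7 mRNAs was -1.21, beside 0.0030 over all genes. The mitochondrial mRNAs are high in level, so the count was also taken over the 491 nuclear protein-coding genes whose mean was 100 FPKM or more, a limit chosen after the values were seen. There 8.35% passed the fold, with 4.07% lower and 4.28% higher. In bulk tissue, fewer cells of a type and less RNA per cell cannot be told apart.

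**Figure D1:**
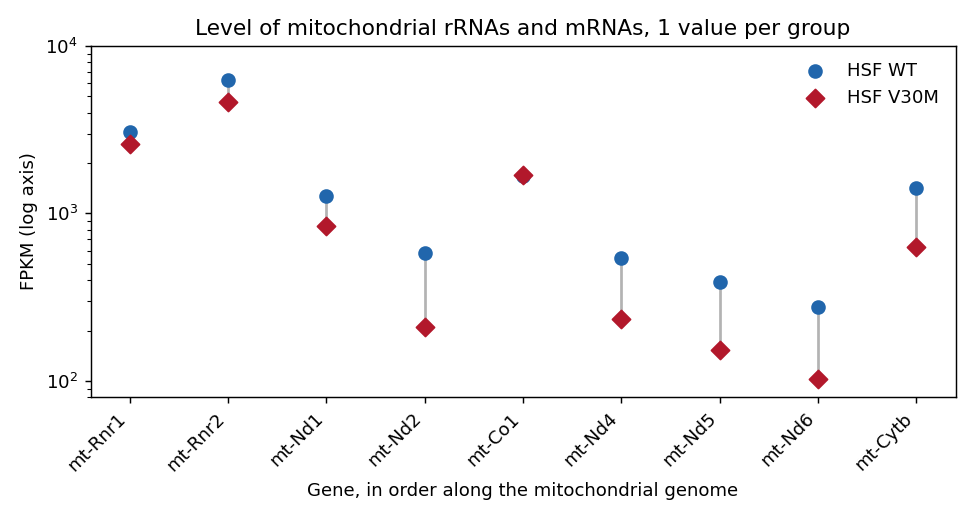
FPKM (log axis) of the 2 rRNAs and 7 mRNAs above 0, in order along the mitochondrial genome, with 1 value per group and a line joining the HSF WT circle to the HSF V30M diamond. The lines are long from mt-Nd2 on except at mt-Co1, where the symbols coincide.

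The rRNAs of the small and large subunits of the mitochondrial ribosome differed less between groups than the mRNAs other than mt-Co1. mt-Rnr1, the 12S rRNA at chrM:70-1024 on the plus strand (GRCm38), was at 2582 FPKM in HSF V30M and 3074 in HSF WT, a log2 ratio of -0.25. mt-Rnr2, the 16S rRNA at chrM:1094-2675, was at 4604 and 6268 FPKM, a log2 ratio of -0.44. Both were lower in HSF V30M by less than 1.5-fold, and 0 of 2 were counted. mt-Rnr2 was 1.78 times as high as mt-Rnr1 in HSF V30M, and 2.04 times as high in HSF WT.

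Complex I, the NADH dehydrogenase through which electrons enter the respiratory chain, has 7 mitochondrial genes. Of these, 5 were above 0 and all 5 were lower in HSF V30M. mt-Nd1, at chrM:2751-3707 and next to the rRNAs, was at 846 FPKM in HSF V30M and 1275 in HSF WT, 1.51-fold lower. This call rests on the edge of the rule. Fragments were estimated from the step size of low FPKM values, as 13960 to 16558 in HSF V30M and 14895 to 20047 in HSF WT for this gene, and give an interval for counting error only. The 95% counting interval of the HSF V30M to HSF WT ratio ran from 0.650 to 0.678 and so includes 1.5-fold.

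The other complex I genes differed more. mt-Nd2, at chrM:3914-4951, was at 209 FPKM in HSF V30M and 584 in HSF WT, the widest difference of the mRNAs at 2.79-fold and a log2 ratio of -1.48. mt-Nd4, at chrM:10167-11544, was at 234 and 544 FPKM, 2.31-fold lower. mt-Nd5, at chrM:11742-13565, was at 153 and 391 FPKM, 2.54-fold lower. These 3 genes are spread over the plus strand, the strand that holds 12 of the 13 mRNA genes.

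mt-Nd6, at chrM:13552-14070, is the mRNA gene of the minus strand and is transcribed from the other promoter. It was at 102 FPKM in HSF V30M and 275 in HSF WT, 2.67-fold lower with a log2 ratio of -1.42. That is close to the -1.35 of mt-Nd5, whose 3′ end overlaps it by 14 bases on the other strand. Whether the counting used strand is not given in the sources used here, so reads in the shared bases cannot be assigned to either gene. Without strand, plus-strand precursor RNA across the whole of mt-Nd6 would also be counted at it. The value of mt-Nd6 therefore cannot be read as that of the other promoter alone, and the same holds for tRNA genes of the minus strand.

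Complex III passes electrons on to cytochrome c, and its mitochondrial subunit is cytochrome b. mt-Cytb, at chrM:14145-15288, was at 632 FPKM in HSF V30M and 1424 in HSF WT, 2.25-fold lower with a log2 ratio of -1.17. Complex IV, cytochrome c oxidase, has its 3 catalytic core subunits in the mitochondrial genome. mt-Co1, its heme-containing subunit at chrM:5328-6872, was at 1692 FPKM in HSF V30M and 1682 in HSF WT, a log2 ratio of 0.01. The other core subunits, mt-Co2 and mt-Co3, and both mitochondrial genes of complex V (ATP synthase), mt-Atp8 and mt-Atp6, were listed at 0 in both groups.

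The levels of the mRNAs relative to mt-Co1 therefore differed between groups. In HSF WT mt-Co1 was 1.18 times mt-Cytb and 1.32 times mt-Nd1, and in HSF V30M it was 2.68 times mt-Cytb and 2.0 times mt-Nd1. Against mt-Nd2 it was 2.88 times as high in HSF WT and 8.10 times in HSF V30M. mt-Co1 held 35.2% of the fragments estimated for mitochondrial mRNAs in HSF WT and 53.6% in HSF V30M. Genes listed at 0 add nothing to these shares.

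Among 21759 protein-coding genes ordered by FPKM, mt-Co1 stood at rank 10 in HSF WT and 12 in HSF V30M. mt-Cytb moved from rank 15 in HSF WT to 39 in HSF V30M, and mt-Nd2 from 49 to 211. mt-Nd6, the lowest of the 7, stood at rank 147 in HSF WT and 493 in HSF V30M. The summed fragments of mRNAs were 1.51 times as high in HSF WT as in HSF V30M and those of rRNAs 1.32 times. Of both classes together, rRNAs made up 63.1% in HSF WT and 66.2% in HSF V30M. The mRNA sums cover only the 7 genes above 0, so these are not values of the whole class.

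**Figure D2:**
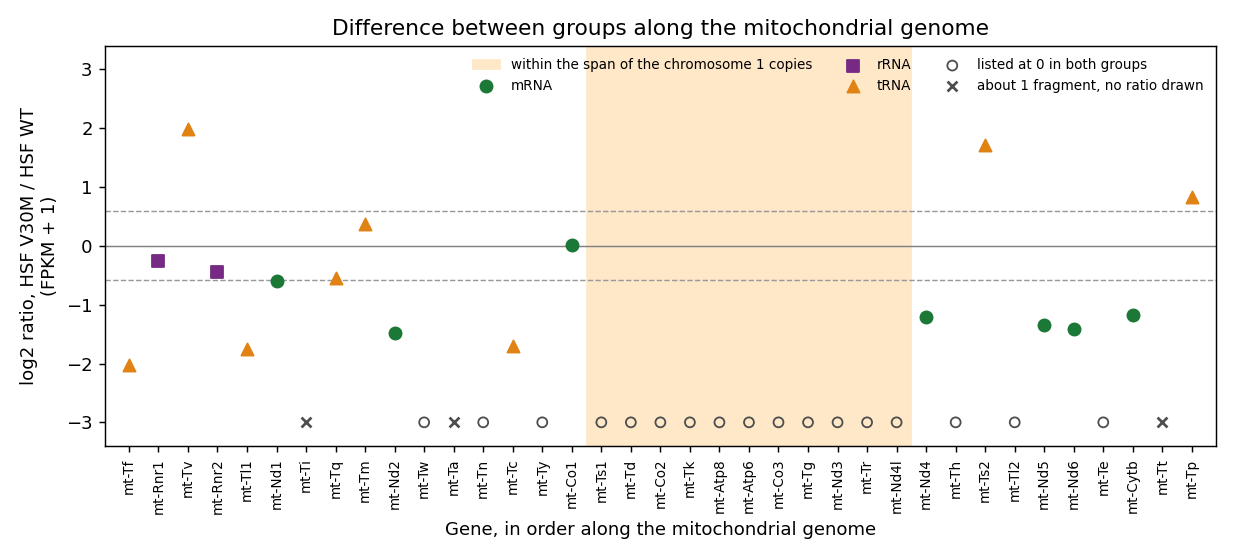
log2 ratio of HSF V30M to HSF WT (FPKM + 1) for the genes in order along the mitochondrial genome, with dashed lines at 1.5-fold and shading over the 11 genes that lie by position inside the span of the annotated copies on chromosome 1. Filled symbols are genes with a ratio, open circles the 17 genes listed at 0 in both groups, and crosses the 3 tRNAs with about 1 fragment; 6 mRNAs lie below the lower dashed line and every shaded gene is an open circle.

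The 17 genes listed at 0 were not scattered evenly along the genome. The unbroken run of 11 genes from mt-Ts1 to mt-Nd4l was at 0 in both groups. It holds the 6 mRNA genes mt-Co2, mt-Atp8, mt-Atp6, mt-Co3, mt-Nd3 and mt-Nd4l and the 5 tRNA genes mt-Ts1, mt-Td, mt-Tk, mt-Tg and mt-Tr. The remaining 6 were the single tRNA genes mt-Tw, mt-Tn, mt-Ty, mt-Th, mt-Tl2 and mt-Te. As a scale for these values, 3 fragments in total would have given mt-Co2, of 684 bases, 0.285 FPKM in HSF V30M and 0.402 in HSF WT, while its neighbour mt-Co1 was estimated at 49590 to 58816 fragments in HSF V30M and 34925 to 47007 in HSF WT. A value of 0 is therefore given here as listed, not as absence of the RNA.

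Part of the sequence of the run is also annotated in the nuclear genome, on chromosome 1. Pseudogenes there, on the minus strand of chr1:24611535-24616197, hold copies of 7 mitochondrial mRNA genes in the mitochondrial order, and correspond to chrM:6390-11042, a span of 4653 bases. Since the copy runs the other way, the sum of the mitochondrial and nuclear start positions of a pair shows whether spacing is kept. It was the same for the first 5 pairs and differed by 1 base for the last 2. All 11 genes lying by position wholly inside this span were at 0. Of these, 5 mRNA genes have an annotated copy, and nuclear sequence at mt-Atp8 and the 5 tRNA genes was not compared. mt-Co1 and mt-Nd4 lie partly inside and had values, and of the 24 genes outside, 6 were at 0, all of them among the 17 tRNAs there.

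The copies are near-identical to the mitochondrial genes. Gm28661 matched mt-Co2 over 681 of its 684 bases, Gm10925 matched mt-Atp6 over 678 of 681, Gm28437 matched mt-Co3 over 783 of 784 and Gm10222 matched mt-Nd4l over 294 of 297, each at 100% identity. Gm28439 holds the first 876 of the 1378 bases of mt-Nd4, also at 100%. Gm29216 holds the last 483 of the 1545 bases of mt-Co1 at 99.79%, with 1 difference.

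The starts of mt-Co2 and of its copies on chromosomes 1 and 2 are shown because they let a reader see how little separates the gene from its nearer copy. Capitals mark the positions at which any of the 3 differ, in GENCODE M21 transcripts on GRCm38. They were read from chrM:7013-7072 (plus strand), chr1:24615506-24615565 (minus strand) and chr2:22587903-22587962 (minus strand).
mt-Co2: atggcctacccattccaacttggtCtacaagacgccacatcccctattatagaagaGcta
Gm28661: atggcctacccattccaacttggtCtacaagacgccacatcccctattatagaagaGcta
Gm13341: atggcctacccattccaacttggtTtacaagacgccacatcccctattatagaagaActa

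Over these 60 bases Gm28661 had 0 differences from mt-Co2 and Gm13341 had 2. Gm28661 was at 0 in both groups, like mt-Co2, and Gm13341, at 95.91% identity over the gene, was at 1.26 FPKM in HSF V30M and 3.45 in HSF WT. A read inside most of mt-Co2 cannot be placed on one or the other of mt-Co2 and Gm28661 from its letters.

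mt-Nd3, a complex I subunit, differed from its copy Gm28438 by 1 base over 345 aligned bases, T3C, counted from the first base of the gene. The starts are shown with that base in capitals, from chrM:9459-9491 (plus strand) and chr1:24613087-24613119 (minus strand).
mt-Nd3: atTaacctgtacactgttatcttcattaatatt
Gm28438: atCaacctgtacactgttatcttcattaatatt

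In the table mt-Nd3 was at 0 in both groups, and Gm28438 was at 135 FPKM in HSF V30M and 143 in HSF WT, a log2 ratio of -0.08. The table has values for 16 nuclear copies of at least 100 bases and 90% identity. The other 15 did not exceed 3.45 FPKM, and 8 were at 0 in both groups. How reads that fit both places were shared between mt-Nd3 and Gm28438 was not tested, so this value cannot be read as nuclear or as mitochondrial RNA. The strain sequenced, 129S1/SvImJ, is not the C57BL/6J strain of the reference.

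The copy of mt-Co1 begins near the single base that differs, A1066T, counted from the first base of mt-Co1. The sequences below, from chrM:6390-6423 (plus strand) and chr1:24616155-24616188 (minus strand), show it in capitals at the edge of the copied segment.
mt-Co1: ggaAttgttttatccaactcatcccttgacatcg
Gm29216: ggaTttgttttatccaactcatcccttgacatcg

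Gm29216 was at 0.580 FPKM in HSF V30M and 0.222 in HSF WT, and Gm13340, a copy of the whole of mt-Co1 on chromosome 2 at 97.61% identity, was at 0.650 and 0.921. The copies were thus far below the 1692 and 1682 FPKM of mt-Co1 itself.

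The share of each gene that is repeated exactly in a nuclear transcript was counted in windows of 50 and 100 bases. At 100 bases, 99.5% of windows of mt-Co2 and of mt-Atp6, 99.9% of mt-Co3, 97.6% of mt-Nd3 and 98.5% of mt-Nd4l were found. For mt-Nd4 the share was 60.8% and for mt-Co1 30.8%, and both genes had values. mt-Nd2 had 3.19%, and the other genes of more than 100 bases had 0%.

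mt-Atp8, at 0 in both groups, is the exception among the 6 mRNA genes of the run, with 0 of 105 windows found, and the 5 tRNA genes of the run had no 50-base window found. It lies in the span between the annotated copies of mt-Co2 and mt-Atp6, whose spacing on chromosome 1 is that of the mitochondrial genome. The nuclear bases between annotated transcripts were not analysed here. mt-Atp8 also shares 43 bases with mt-Atp6, and at 204 bases 3 fragments would have given it 4.22 FPKM in HSF V30M and 5.96 in HSF WT.

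**Figure D3:**
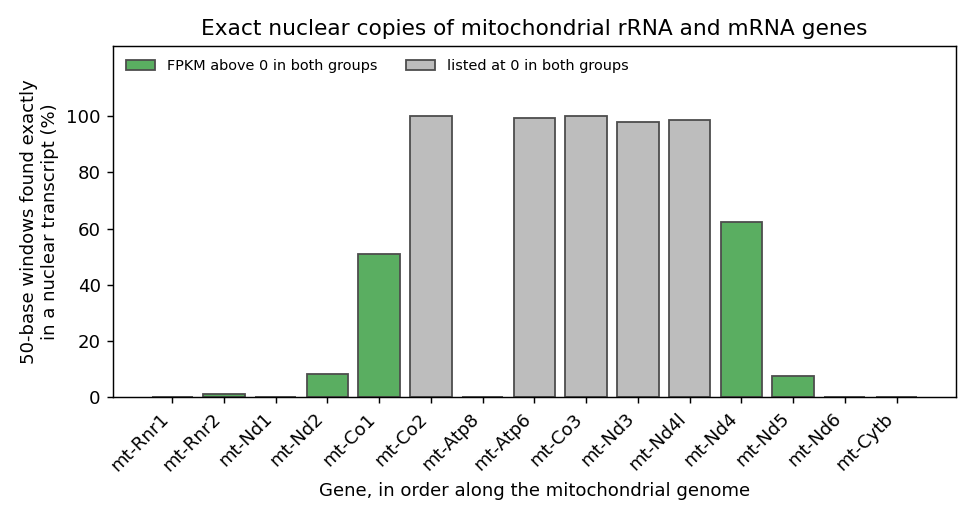
Percent of 50-base windows of each rRNA and mRNA gene, in order along the mitochondrial genome, that occur exactly in an annotated nuclear transcript; green bars are genes with FPKM above 0 in both groups and grey bars genes listed at 0. Of the 6 genes at 0, 5 stand at 98% or more, mt-Co1 at 51.1% and mt-Nd4 at 62.2%, and the others at 8.19% or less, with mt-Atp8, also listed at 0, among them.

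mt-Co1 and mt-Nd4 are the genes with values that have the largest shares of exactly repeated windows. They went different ways, at log2 ratios of 0.01 and -1.21. Less exact copies are annotated for other genes with values, over the whole of mt-Nd6 at 93.64% identity and 99.8% of mt-Cytb at 92.91%. Such copies also cover 57.9% of mt-Nd5 at 92.34% identity and 49.1% of mt-Nd2 at 96.67%. Among the 5 mRNAs outside the span, mt-Nd1, mt-Nd2, mt-Nd5, mt-Nd6 and mt-Cytb, all 5 were lower, with a median of -1.35 and a range from -1.48 to -0.59. How reads that fit several places were treated is not given in the sources used here. Its part in the value of mt-Co1 was not tested.

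The tRNA genes rested on few fragments. Their length of 59 to 75 bases is shorter than 199 bases, the mean fragment length that best fitted the steps of the FPKM values. That mean was searched within a narrow range only and is not a measured length of these fragments. The lowest values above 0 of single-transcript genes of 55 to 79 bases were 31.1 FPKM in HSF V30M and 38.1 in HSF WT. Of 22 tRNAs, 11 were at 0 in both groups, which 3 fragments, worth 104 to 204 FPKM in HSF V30M and 147 to 288 FPKM in HSF WT at these lengths, would have changed. Of the 11 above 0, 5 were higher in HSF V30M, 3 lower and 3 within 1.5-fold, with a median log2 ratio of 0.37.

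These counts were read against genes of like length. Among 226 nuclear single-transcript genes under 100 bases, 77.4% passed 1.5-fold in either direction, 50.9% higher and 26.5% lower in HSF V30M, with a median of 0.68. Leaving out the 3 tRNAs with at most 3 fragments in both groups, 3 were higher, 3 lower and 2 within the fold, and the median was -0.09. The tRNAs thus gave no common direction.

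**Figure D4:**
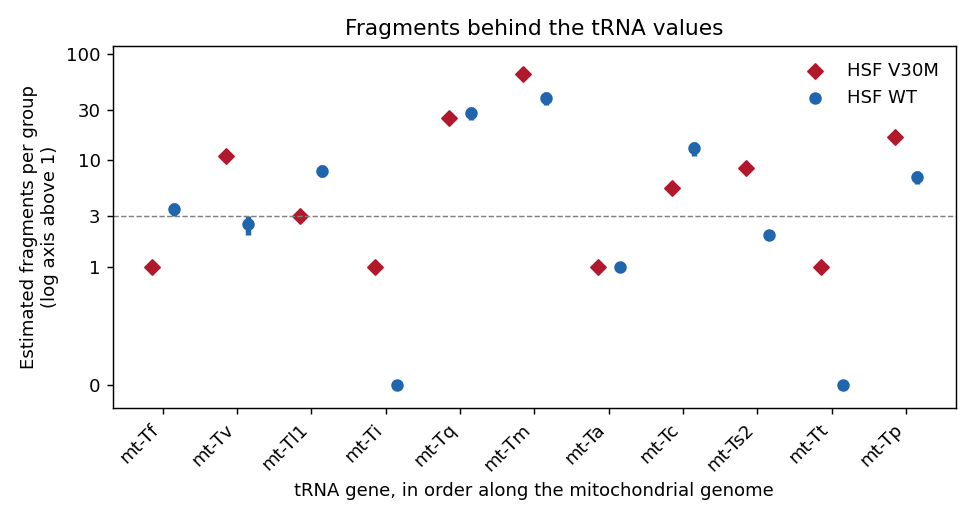
Estimated fragments per group (log axis above 1) for the 11 tRNA genes above 0 in at least 1 group, in order along the mitochondrial genome, with diamonds for HSF V30M, circles for HSF WT, bars for the range of the estimate where it exceeds the symbol, and a dashed line at 3 fragments. The 4 tRNAs mt-Tq, mt-Tm, mt-Tc and mt-Tp, lie above the line in both groups.

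The sequences of those 4 tRNAs are shown because they are the ones with over 3 fragments in both groups. Capitals mark the anticodon, found as the middle of a 7-base loop closed by a 5-pair stem with at least 4 pairs. mt-Tm, at chrM:3845-3913, lies on the plus strand, and mt-Tq, at chrM:3772-3842, mt-Tc, at chrM:5192-5257, and mt-Tp, at chrM:15356-15422, lie on the minus strand.
mt-Tm: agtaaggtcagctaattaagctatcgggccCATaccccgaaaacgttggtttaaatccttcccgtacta
mt-Tq: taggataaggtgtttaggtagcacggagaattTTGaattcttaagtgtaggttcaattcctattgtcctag
mt-Tc: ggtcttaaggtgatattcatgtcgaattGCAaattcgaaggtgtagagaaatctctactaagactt
mt-Tp: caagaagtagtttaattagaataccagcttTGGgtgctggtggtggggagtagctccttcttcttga

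mt-Tm, the methionine tRNA that also starts translation, was the highest at 2632 FPKM in HSF V30M and 2031 in HSF WT, which was 60 to 71 fragments against 33 to 44. The ratio of 1.30 had a 95% counting interval from 0.855 to 1.99. mt-Tq, the glutamine tRNA, was at 938 FPKM and 1376, with a ratio of 0.682 and an interval from 0.381 to 1.21. Both differences lay within counting error, which is the least error these values can have, since differences between mice come on top.

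mt-Tc, the cysteine tRNA, was at 237 FPKM in HSF V30M and 776 in HSF WT. Its estimated fragments were 5 to 6 and 11 to 15. Its ratio of 0.306 had an interval from 0.0853 to 0.914, the only interval among the tRNAs that did not include 1. mt-Tp, the proline tRNA, was at 711 FPKM and 398, a ratio of 1.79 with an interval from 0.695 to 5.13.

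The other tRNAs had 3 or fewer fragments in at least 1 group. mt-Tv, the valine tRNA that lies between the rRNAs, had 10 to 12 fragments in HSF V30M against 2 to 3, and mt-Ts2, a serine tRNA, 8 to 9 against 2. mt-Tl1, a leucine tRNA, had 3 against 7 to 9, and mt-Tf, the phenylalanine tRNA at the start of the transcript, 1 against 3 to 4. mt-Ta, mt-Ti and mt-Tt were seen with about 1 fragment in HSF V30M, and with 1, 0 and 0 in HSF WT, so no fold is given for them.

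The nuclear genes that maintain and express mitochondrial DNA were set beside the members, from lists chosen by function. Of 12 genes of replication and the nucleoid, 0 were higher and 1 was lower, Mgme1, a nuclease that trims mitochondrial DNA ends, at 3.31 FPKM in HSF V30M and 7.94 in HSF WT. Tfam, which packages mitochondrial DNA and starts its transcription, was at 7.35 and 6.88 FPKM. The median of the list was -0.05.

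Of the 8 transcription genes at the minimum level, 0 passed the fold in either direction, and their median was -0.12. Polrmt, the mitochondrial RNA polymerase, was at 8.79 FPKM in HSF V30M and 7.14 in HSF WT, and its partner Tfb2m at 5.27 and 6.78. Among 21 genes of RNA processing and stability 0 passed the fold, with a median of 0.11. Of 20 RNA modification genes, 2 were higher and 0 lower, with a median of 0.13.

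Mitochondrial translation was covered by 3 lists. The 12 translation factors had 0 genes past the fold and a median of -0.05. Of 78 mitochondrial ribosomal proteins, 1 was higher, 6 were lower and 71 were within the fold, with a median of -0.12. Among them Mrpl48 was at 15.9 FPKM in HSF V30M and 6.36 in HSF WT, and Mrps21, Mrpl18 and Mrpl14 were 1.84-, 1.82- and 1.70-fold lower in HSF V30M.

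Of 21 genes for the loading of mitochondrial tRNAs with amino acids, the synthetases with the amidotransferase subunits Gatb, Gatc and Qrsl1, 1 was lower and 0 higher, with a median of -0.19. The lower gene was Lars2, the leucyl-tRNA synthetase, at 4751 FPKM in HSF V30M and 8555 in HSF WT. No other gene of the list exceeded 34.8 FPKM in either group, so this value stands far above its list.

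The nuclear subunits of the respiratory complexes differed less than the mitochondrial mRNAs. Of 74 nuclear subunit genes, 4 of them of complex II, which has no mitochondrial gene, 3 were higher and 2 lower in HSF V30M, with a median log2 ratio of -0.08 against -1.21 for the mitochondrial mRNAs. Of 35 nuclear complex I genes, 1 was higher and 0 were lower, with a median of -0.08 and a range from -0.58 to 0.65, and all 5 mitochondrial complex I mRNAs lay below that range. The 9 nuclear genes of complex III had 0 past the fold and a median of -0.24.

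Of 11 nuclear complex IV genes, 1 was higher and 1 lower, with a median of -0.18. Of 15 complex V genes, 1 was higher and 1 lower, with a median of 0.03. The subunits past the fold were Atp5g2, a c-ring subunit of ATP synthase at 34.1 FPKM in HSF V30M and 12.8 in HSF WT, Cox7a2 at 39.8 and 65.8, Atp5k at 37.5 and 61.4, and Ndufb2 at 32.9 and 20.6, with Cox6c just past it at 1.52-fold higher in HSF V30M.

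Genes used as a gauge of mitochondrial mass gave a median of -0.19 over 12 genes. Past 1.5-fold 1 was lower, the import channel gene Timm23 at 15.2 FPKM in HSF V30M and 25.4 in HSF WT. By any amount, all were lower in HSF V30M except Vdac2, at 87.1 FPKM in HSF V30M and 83.8 in HSF WT. The 7 regulators of mitochondrial biogenesis at the minimum level had 0 genes past the fold and a median of -0.11.

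**Figure D5:**
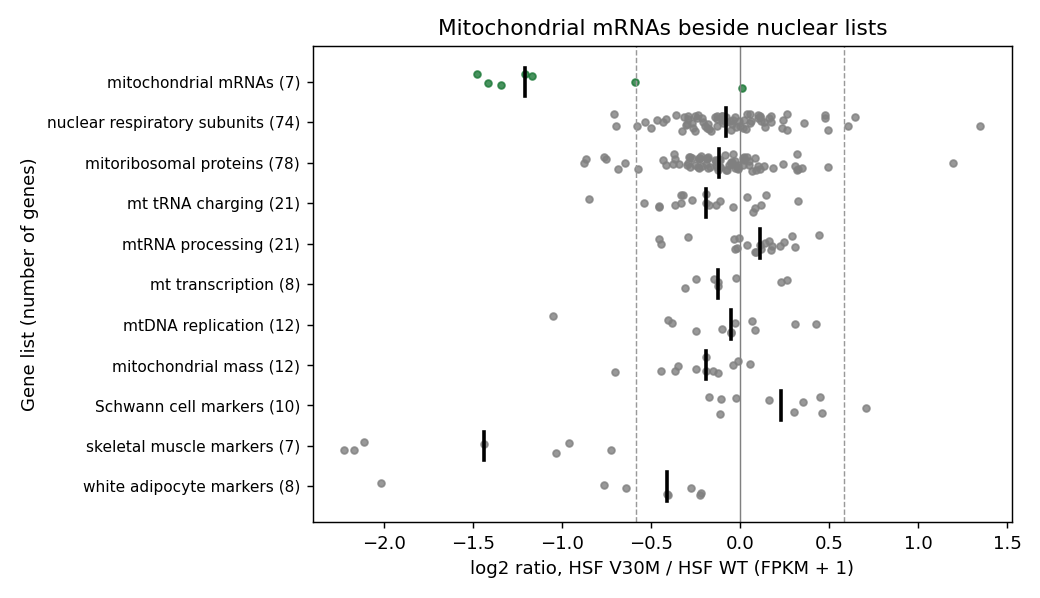
log2 ratio of HSF V30M to HSF WT (FPKM + 1), 1 point per gene of 1 FPKM or more on average, for the 7 mitochondrial mRNAs (green), 7 lists of nuclear genes of mitochondria and 3 lists of cell type markers; black bars are medians and dashed lines mark 1.5-fold. The mitochondrial mRNAs have a median of -1.21, the nuclear lists of mitochondrial genes medians between -0.19 and 0.11, and the skeletal muscle markers a median of -1.44.

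Markers of other cell types differed between groups as well. Skeletal muscle, which is rich in mitochondria, had 7 of 10 markers at the minimum level, and all 7 were lower in HSF V30M, with a summed level over the 10 of 42.5 FPKM against 141 and a median of -1.44. Ckm, muscle creatine kinase, was at 8.97 FPKM in HSF V30M and 43.8 in HSF WT, and Tnnt3, a fast-fibre troponin, at 10.9 and 22.2. White adipocyte markers had 3 of 8 lower and 0 higher, with a sum of 1408 FPKM against 2077. Of these, Fabp4 was at 462 and 722 FPKM, and Adipoq at 319 and 543.

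Brown adipocyte markers had 1 of 2 lower, with a sum of 4.82 FPKM against 6.35, and B cell markers had 4 of 4 lower, with 2.69 against 22.8. Erythrocyte markers had 5 of 6 higher, with 292 FPKM against 101. Neutrophil markers had 5 of 6 higher and 1 lower, with 105 against 30.9.

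In the lists for Schwann cells, fibroblasts, endothelium, macrophages and axons, at most 1 marker each passed the fold. Schwann cell markers had 1 of 10 higher and 0 lower, with a sum of 12983 FPKM in HSF V30M and 11387 in HSF WT. Fibroblast markers had 1 of 6 lower, with 2030 against 2033, endothelial markers 1 of 6 higher, with 209 against 171, and macrophage markers 1 of 6 lower, with 150 against 199. Axonal markers had 0 of 3 past the fold, with 8.03 FPKM against 5.71. No marker in any of these lists was at 0 in either group, and the part of these cell types in the difference of the mitochondrial mRNAs was not tested.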

How the data were processed

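RNA from sciatic nerves of 4 mice, 2 labelled HSF V30M and 2 HSF WT, was sequenced with Ion Torrent libraries. The submitters' processing notes name STAR, Cufflinks, Cuffdiff and GRCm38, without versions. The authors deposited 1 Cuffdiff table with a pooled FPKM per gene and group, written with decimal commas. The log2 fold changes, p-values and q-values hold the authors' own comparison and were not used. Status was OK for 20 members, NOTEST for 17 and HIDATA, which leaves a gene without a usable estimate, for 0.

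Log2 ratios took a pseudocount of 1, which understates differences of low genes. The members, lists and limits were chosen with earlier results of these data known. Genes named were all members, up to 4 genes per nuclear list past 1.5-fold with a mean FPKM of at least 5, the top 2 of the marker lists described by gene (1 of them is not reported here), and nuclear copies of at least 300 bases and 90% identity with a mean FPKM of at least 1. Tfam, Polrmt, Tfb2m, Cox6c, Gatb, Gatc, Qrsl1 and the other nuclear copies were named beyond that rule after their values were seen.

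Depth is not given in the sources used here. Since values of short single-transcript genes fell in steps, the worth of 1 fragment per kilobase was estimated after the values were seen, as 0.0387 to 0.0459 FPKM in HSF V30M and 0.0481 to 0.0648 in HSF WT. The effective length used a fragment length of 199 bases with an SD of 78, fitted to the table. Both were searched within a narrow range set beforehand, so they are not measured fragment lengths. Fragments are approximate; intervals are exact (Clopper-Pearson, 95%) and, like the floor of 3 fragments, cover counting error only. Copies were found with blastn 2.17.0 in GENCODE M21 transcripts, and 50369 of 50593 gene identifiers matched that release. Python 3.11.15, pandas 2.3.3 and scipy 1.17.1 were used, and the counting of genes past a fold was tested on simulated data.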

Additional observations from a re-analysis of the deposited data

How the results depend on the processing

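With 1 value per gene and group, no alternative can stand in for the spread between mice, and no library could be left out. No paired analysis was possible because each group has only a single pooled FPKM. The settings tried were median-of-ratios scaling, a pseudocount of 0.1, no minimum or a minimum FPKM of 5, and a 2-fold limit. Of 75 alternatives for counts and medians 70 stayed within 1.5 times a count or within 0.1 (log2) of a median, and all 36 for the 18 genes tried kept their direction and side of the fold. At 2-fold, 5 mRNAs were lower, without mt-Nd1. With the settings above, the median of the synthetase and amidotransferase list moved, to -0.29 with a minimum of 5. The count of all genes past the fold also moved, to 1378 with a minimum of 5 and 1237 at 2-fold, against 2603. It was 3609 with no minimum and 3395 with a pseudocount of 0.1. The minimum of 5 tests fewer genes and the 2-fold limit asks for a larger fold. Some of the 75 alternatives were chosen after seeing the data. Without mt-Co1 the mRNA median was -1.28, which counts as unmoved. Without mt-Co1 and mt-Nd4 it moved from -1.21 to -1.35. Without tRNAs of at most 3 fragments in both groups the tRNA median moved from 0.37 to -0.0893, a change of sign. The tRNAs above 0 rested on few estimated fragments, and the mRNAs with values on at least 711 in each group. Why the tRNAs had few was not tested.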
